A study of Mus musculus with 8 samples.

Results

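The cytosolic ribosome is built from ribosomal RNA and a set of ribosomal proteins, each made from its own gene. The large subunit (Rpl and Rplp genes) joins amino acids and holds the exit tunnel, and the small subunit (Rps genes) reads the messenger RNA. The genes for these proteins lie on many chromosomes, and their messenger RNAs typically begin with a C followed by a pyrimidine stretch, the 5′ terminal oligopyrimidine tract, through which growth signals acting on mTOR control their translation. In the brain, ribosomes serve protein synthesis in cell bodies and also in neuronal processes.

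The genes described here are the rows of the count table whose symbol starts as a cytosolic ribosomal protein gene (Rpl, Rplp or Rps followed by a number, or Rpsa). Of 107 symbols with that stem, 8 pseudogene rows, 10 kinase rows starting with Rps6k and Rps19bp1 were left out, which leaves 88 genes of the 17983 in the table. Of these, 54 belong to the large subunit and 34 to the small subunit. The set has 76 core genes, Rps4x, 8 copies with symbols ending in l or l1, and 3 copies whose symbols carry rt or rg1. Fau and Rack1, which also encode ribosomal proteins but under other names, are outside this stem and are given separately.

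The RNA came from whole brains of male db/db mice, which lack a working long leptin receptor and become obese and diabetic. One group (KD1 to KD4) received a ketogenic diet and the control group (C1 to C4) a normal diet; feeding began at 9 weeks and the brains were taken at 6 months. All 8 libraries carry the db/db genotype, so no lean animal is part of the comparison. The labels do not say whether each library is a separate mouse, and p-values then measure only the spread between these libraries. In whole tissue, fewer cells of a type and less RNA per cell cannot be told apart.

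The libraries held 34450860 to 40233361 counts. Differences are log2 fold changes, ketogenic minus control, from edgeR's quasi-likelihood test, and a gene is called higher or lower at an adjusted p (Benjamini-Hochberg over all 14895 genes tested) under 0.05. Levels are in CPM (counts scaled to library size with TMM factors) within a gene and in FPKM, which is per length, between genes. KD3 stood apart from the other libraries on the first principal component of all genes, at 34.4 against 2.90 to 11.2 for the other ketogenic libraries.

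Of the 88 genes, 85 passed the filter on low counts. The other 3, Rpl32l, Rpl39l and Rps23rg1, had 0 to 8 counts in any library. Among the 85 tested, 40 were higher in the ketogenic group and 0 were lower. The 40 include Rps27rt and Rpl37rt, near-identical copies of Rps27 and Rpl37 whose counts depend on how shared reads were placed. Among core genes, counting Rps4x, 20 of 46 large and 18 of 31 small subunit genes were higher. Across all genes tested, 3.3% were called higher and 3.22% lower. At an unadjusted p under 0.05, 56 members were higher and 1, Rps26, was lower. With DESeq2's Wald test 48 members were higher and 0 lower. The fitted difference was positive for 77 of the 85, with a median of 0.23 on the log2 scale, against 0.00 for all genes tested. The changes were small: the 40 called genes were 1.16- to 1.6-fold higher, with a median of 1.28-fold. In 30 members every ketogenic library lay above every control library, and in all 30 the gene was called, while 7.22% of all genes tested separated in that direction.

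**Figure D1:**
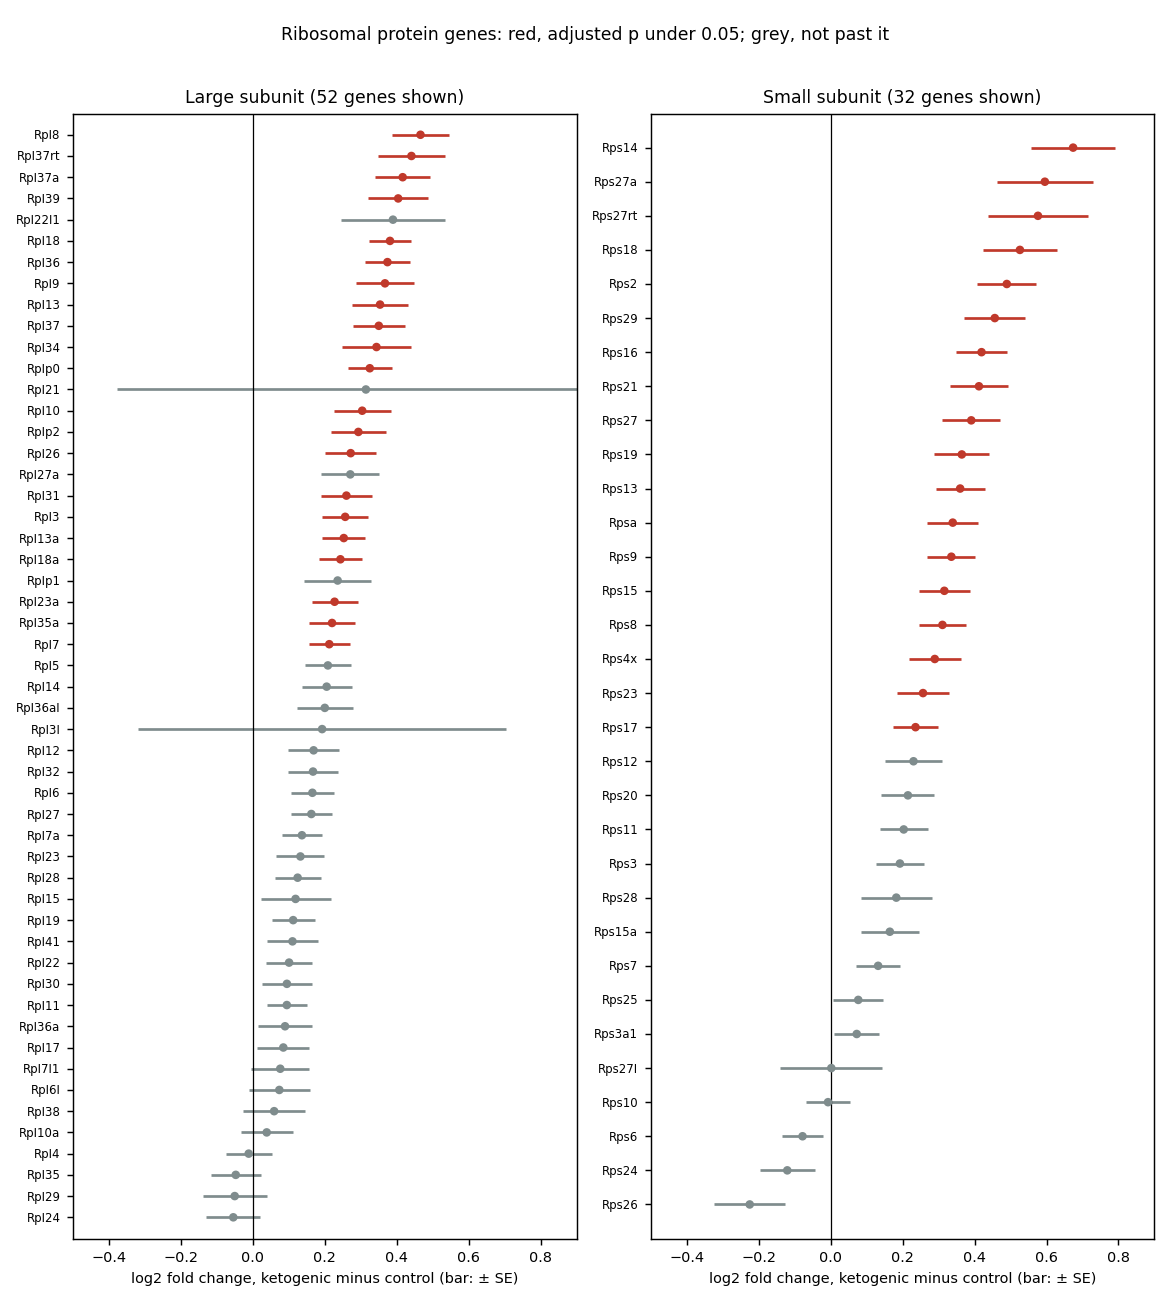
Log2 fold change (ketogenic minus control) with its standard error for the 52 large subunit genes and 32 of the 33 small subunit genes tested, red where the adjusted p is under 0.05. Red points lie only to the right of 0, and Rps26 is the lowest point at -0.23; the error bar of Rpl21 runs past the axis.

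The count of 40 depended on single libraries. It was 12 without C1, 14 without C2, 13 without KD2 and 28 without KD3, and between 35 and 41 without any of the other 4. Calls fell over the whole table too. All genes called higher went from 491 to 70, 99, 102 and 331 in the same order, and to between 221 and 938 without any of the other 4. The members' median difference stayed between 0.19 and 0.28 in the fits with a library left out. The count of 40 also fell when a trend with gene length was removed. Members are short (median 795 bases among those tested, against 3666 for all genes). After each library's trend with length was removed, 17 were higher and Rps26 was lower. The trend was fitted to members and other genes together, so part of the members' own difference enters what is removed. With both GC content and length removed, 14 were higher, Rps26 was lower and the median was 0.14. All genes called higher numbered 417 with length removed and 153 with both removed, against 491 in the main fit. With limma on log2(FPKM + 1), 3 members of 64 genes called in all were higher. Among non-member genes under 1000 bases with more than 50 CPM, 20 of 100 were higher, with a median difference of 0.10. In 30 of these 100 every ketogenic library lay above every control library, beside 30 of the 85 members tested. Whether length, RNA quality or library preparation has a part in the members' difference was not tested.

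Of the 40, 12 passed with any single library left out. Of these, 8 also passed with GC content and length removed, among them Rpl18, Rpl37a, Rpl8, Rplp0, Rps14, Rps16 and Rps2. Rpl18, a core protein of the large subunit, had the smallest p. Its CPM was 84.8, 89.5, 92.6 and 95.0 in C1 to C4 and 109.1, 123.3, 120.3 and 118.5 in KD1 to KD4, so the lowest ketogenic library exceeded the highest control. The difference was 0.38 ± 0.06 (SE; edgeR adjusted p = 0.0037). The gene lies on chromosome 7 from 45715467 to 45720835 (GRCm38.p6, RefSeq annotation).

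Rps2, which lines the mRNA entry channel, had 67.1, 84.3, 84.4 and 88.9 CPM in the controls and 101.2, 121.0, 123.2 and 110.7 in the ketogenic libraries. The groups did not overlap, and the low control was C1. The difference of Rps2 was 0.49 ± 0.08 (SE; edgeR adjusted p = 0.0071).

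Rps14, a small subunit protein near the decoding platform, showed the largest difference of all members, 0.67 ± 0.12 (SE; edgeR adjusted p = 0.0073). Its CPM was 100.7, 135.9, 143.5 and 165.0 in C1 to C4 and 185.2, 238.6, 244.0 and 202.3 in KD1 to KD4. Control values spread widely here, from C1 at the bottom to C4 at the top, yet none reached the lowest ketogenic value. Rps16, which binds in the head of the small subunit, went from 89.9 ± 5.99 to 120.2 ± 11.7 CPM (SD, n = 4; edgeR adjusted p = 0.0071). Rpl8, in the core near the peptide-forming center, went from 201.9 ± 22.9 to 278.9 ± 25.2 CPM (SD, n = 4; edgeR adjusted p = 0.0072). Both were separate between groups in all 8 libraries.

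Rps27a, made as a fusion of ubiquitin with a small subunit protein, had the second largest difference, 0.60 ± 0.13 (SE; edgeR adjusted p = 0.021). Its CPM was 52.5, 57.7, 60.1 and 51.0 in the controls and 65.5, 79.6, 117.9 and 71.4 in the ketogenic libraries. The value in KD3 was well above the other 3 ketogenic values, and the log2 difference ranged from 0.39 to 0.70 over the fits with one library left out. The call was lost without C1, C2 or KD2. Fau and Rack1 were higher by 0.30 (adjusted p = 0.016) and 0.31 (adjusted p = 0.0085), so both were called.

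**Figure D2:**
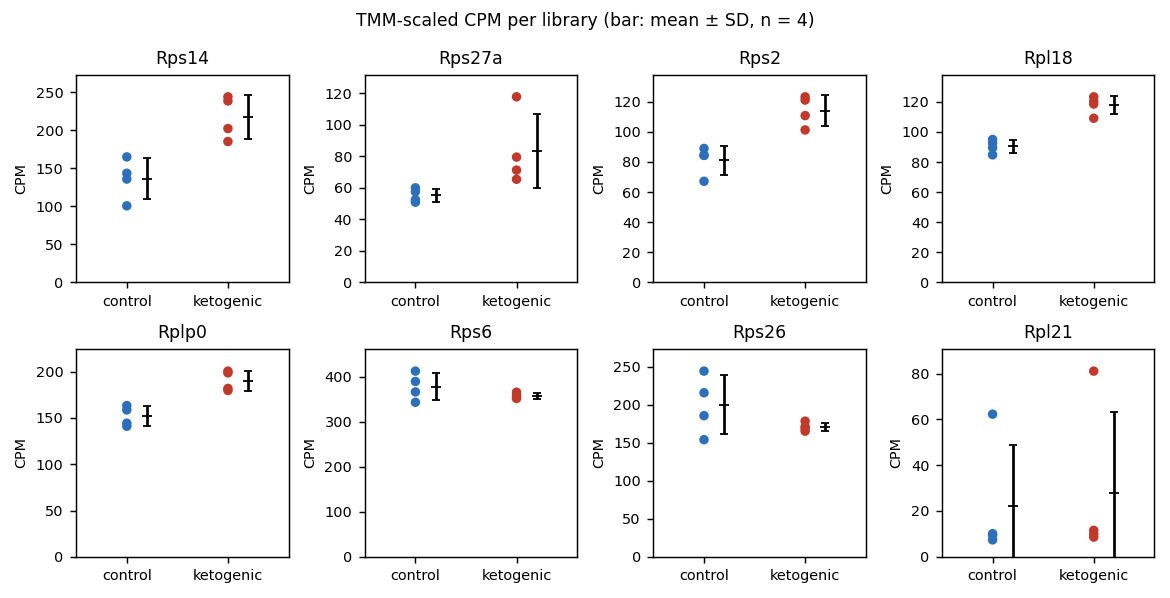
TMM-scaled CPM in each library for 8 genes, with mean and SD (n = 4 per group); for Rpl21 the lower end of the bars is cut at 0. Rps14, Rps27a, Rps2, Rpl18 and Rplp0 have no overlap between groups, Rps6 and Rps26 overlap, and Rpl21 has a single high library in each group.

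Several abundant members did not follow. Rps26, a small subunit protein at the mRNA exit, had CPM of 244.4, 185.7, 215.9 and 154.1 in C1 to C4 and 165.3, 171.4, 178.5 and 169.0 in KD1 to KD4. The control libraries enclosed all ketogenic values, and the difference of -0.23 ± 0.10 did not pass (SE; edgeR adjusted p = 0.17). Without C4, the lowest control, Rps26 was called lower. Rps6, the protein phosphorylated by S6 kinases, had 389.4, 366.1, 412.4 and 343.2 CPM in the controls and 360.1, 353.8, 365.5 and 351.6 in the ketogenic libraries (-0.08; edgeR adjusted p = 0.44). Its groups overlapped. The other members with a negative difference were Rps24, Rpl24, Rpl29, Rpl35, Rpl4 and Rps10, at -0.12 to -0.01, named here because they are all that remain below 0.

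By subunit, 21 of 52 large subunit genes and 19 of 33 small subunit genes were higher, with median differences of 0.21 and 0.29. The difference between the subunits has no test here. In each library the mean log2(CPM + 1) of the small subunit genes minus that of the large was -0.10, -0.07, -0.06 and -0.10 in C1 to C4. It was -0.03, -0.06, 0.02 and -0.02 in KD1 to KD4. KD2 fell just below C3, so the groups overlapped. The small subunit made up 37.0% to 37.2% of the members' CPM in the controls and 36.9% to 37.6% in the ketogenic libraries, again overlapping. With GC content and length removed, 6 large and 8 small subunit genes were higher, with medians of 0.11 and 0.20. Without C1 there were 5 and 7, without C2 6 and 8, without KD2 5 and 8, and without KD3 12 large subunit genes were higher.

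**Figure D3:**
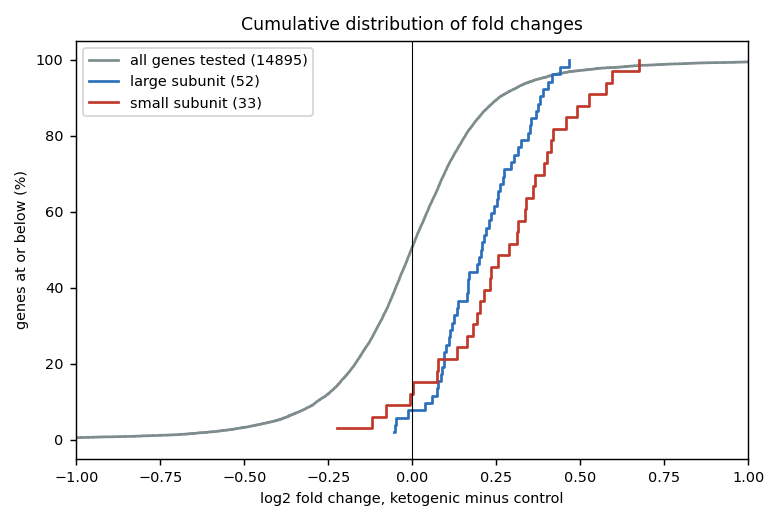
Cumulative share of genes by log2 fold change (ketogenic minus control) for the 52 large subunit genes, the 33 small subunit genes and all 14895 genes tested. Both subunit curves lie to the right of that for all genes, and their medians are 0.21 and 0.29.

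Counts in functional groups within the ribosome stand beside 40 of 85 members (47.1%) called higher in all. Differences between these groups were not tested. In the P stalk, which recruits elongation factors, 2 of 4 listed genes passed: Rplp0 at 0.33 (edgeR adjusted p = 0.011) and Rplp2 at 0.29 (adjusted p = 0.037). Rplp1 had a difference of 0.24 with an adjusted p of 0.13, and its C1 value of 262.3 CPM lay above KD1 and KD4. Of Rpl5 and Rpl11, which carry the 5S RNA into the large subunit, neither passed (adjusted p = 0.058 and 0.33). Around the exit tunnel 4 of 9 genes were higher, among them Rpl39 at 0.40 and Rpl26 at 0.27. Along the mRNA path 4 of 7 were higher: Rps27a by 0.60, Rps2 by 0.49, Rps15 by 0.32 and Rps23 by 0.26. Of 19 genes mutated in Diamond-Blackfan anemia, 8 were higher, Rps19 among them at 0.36 (adjusted p = 0.017). Rpsa, also known as the laminin receptor precursor, rose by 0.34 (adjusted p = 0.017).

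Levels between genes were compared per length. The 77 core genes, counting Rps4x, had a median of 184.7 FPKM, and 62 of them were over 100 FPKM. The highest means were 810.4 FPKM for Rpl41, 647.3 for Rps15, 530.1 for Rplp1, 501.6 for Rpl26 and 430.3 for Rpl35. Of these, Rps15 and Rpl26 were called higher. The lowest of those tested were Rpl3l at 0.15, Rps27l at 3.42, Rpl21 at 13.6, Rpl7l1 at 15.6 and Rps27rt at 19.0 FPKM. Each gene's FPKM rests on 1 fixed length in the table, which for only 7 of the 88 genes equals a GENCODE transcript length.

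Library by library, the members' counts were 1.22%, 1.22%, 1.38% and 1.24% of all counts in C1 to C4 and 1.33%, 1.54%, 1.51% and 1.40% in KD1 to KD4. C3 lay above KD1, so the summed share overlapped between groups. Among the 85 tested genes, KD3 was the highest library for 53 and KD2 for 21, while C1 was the lowest for 41, C4 for 26 and C2 for 15. C3 was the highest for 8, and 41 genes were above their own mean there. Within a group the median coefficient of variation of a member was 8.19% in the controls and 8.65% in the ketogenic libraries.

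**Figure D4:**
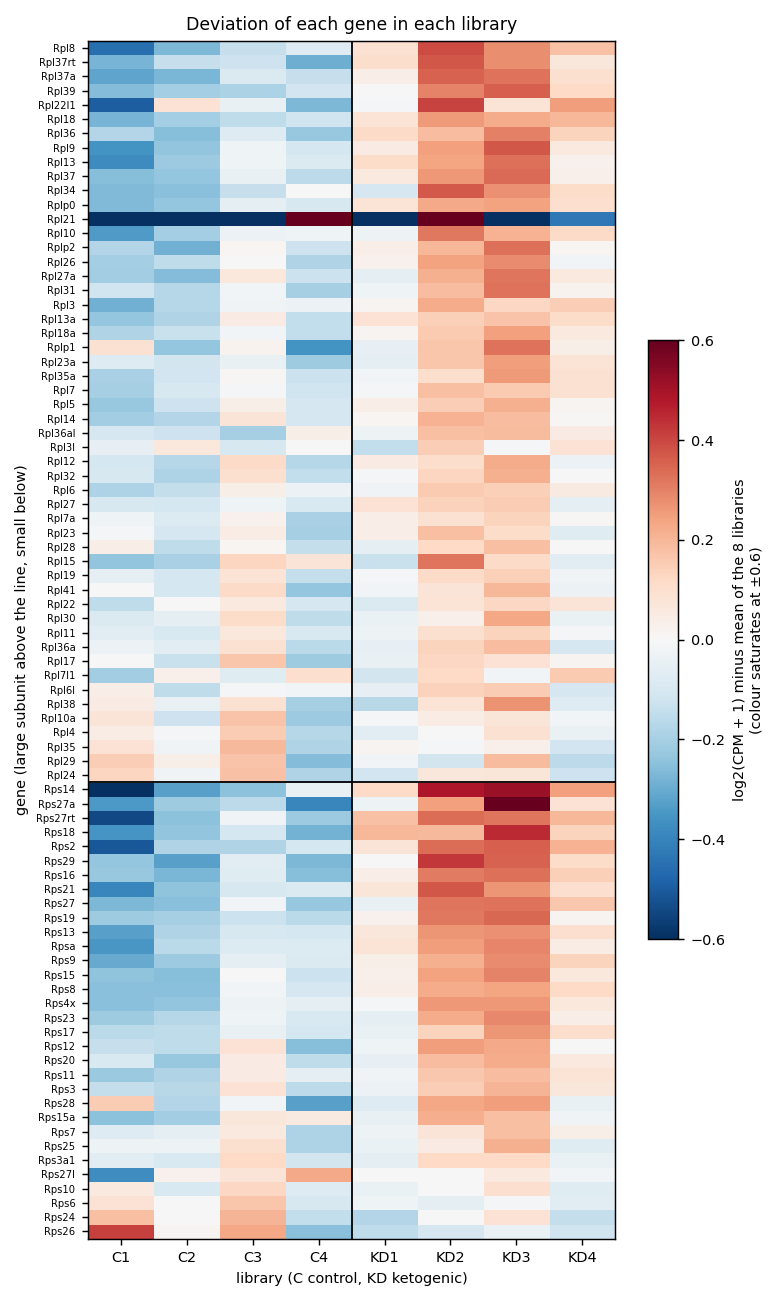
Deviation of log2(CPM + 1) from the mean of the 8 libraries for 84 of the 85 genes tested (rows, large subunit above the line) in each library (columns). KD2 and KD3 are red for most rows and C1, C2 and C4 blue, C3 and KD1 lie near 0, and the row of Rpl21 has its high values in C4 and KD2.

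Rpl21, a large subunit protein, departed from all other members. Its counts were 319, 265, 360 and 2433 in C1 to C4 and 332, 3314, 372 and 450 in KD1 to KD4. C4 and KD2 thus stood far above the other 6 libraries, 1 in each group. The lower of these 2 libraries was 5.39-fold above the highest of the other 6 in CPM. Among 13527 genes with a mean of at least 1 CPM, no other gene had a gap of 2-fold or more in the same 2 libraries, and the next, Slc5a5, had 1.55-fold. The diet difference of 0.31 ± 0.69 for Rpl21 therefore rests on 1 library per group (SE; edgeR adjusted p = 0.83). Rpl21 lies on chromosome 5 from 146832890 to 146837032, and the cause of its pattern was not tested.

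Copies of ribosomal protein genes were set against their parents by sequence first, since near-identical copies share reads. The coding starts of the Rps27 family, from the GENCODE M21 transcripts (GRCm38), are shown because they separate a copy that can be told apart from one that cannot. Capitals mark bases that differ from Rps27 at the same position in the first 90 coding bases.
Rps27: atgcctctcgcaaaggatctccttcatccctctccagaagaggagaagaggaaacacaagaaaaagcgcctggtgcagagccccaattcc
Rps27rt: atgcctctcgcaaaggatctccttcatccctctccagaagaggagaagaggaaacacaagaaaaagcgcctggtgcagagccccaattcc
Rps27l: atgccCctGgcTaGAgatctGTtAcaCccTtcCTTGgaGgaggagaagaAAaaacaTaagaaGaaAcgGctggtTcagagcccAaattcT
Rps27l differs at 24 of these 90 bases and at 61 of the 255 coding bases, and Rps27rt at 0 of 255. The transcript of Rps27rt matches that of Rps27 over 341 bases with no difference, so counts for the 2 depend on how reads that fit both were placed.

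The same holds for Rpl37rt, 99.7% identical to Rpl37 over 294 aligned bases, and for Rpl6l, an annotated pseudogene 98.7% identical to Rpl6 over 871. Their values are uncertain. Rpl36al and Rpl36a, which encode nearly the same protein, differ enough to be counted apart, as their coding starts show, with capitals at bases that differ from Rpl36a.
Rpl36a: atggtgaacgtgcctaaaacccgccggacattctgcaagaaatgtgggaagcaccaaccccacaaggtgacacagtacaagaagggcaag
Rpl36al: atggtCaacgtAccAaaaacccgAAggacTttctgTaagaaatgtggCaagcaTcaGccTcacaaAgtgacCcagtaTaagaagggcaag
These 2 differ at 39 of 321 coding bases, and their longest shared exact run over the whole transcript is 24 bases.

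None of the 6 copies ending in l or l1 that were tested passed in the fit over all genes. Their median difference was 0.13, and 2, Rpl22l1 and Rpl36al, had an unadjusted p under 0.05. Of the other copies, Rps27rt and Rpl37rt were higher by 0.58 and 0.44 (edgeR adjusted p = 0.028 and 0.017).

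For each pair the counts of the copy were taken as a percent of its parent's counts in each library. Rps27l, a copy reported as a p53 target, was at 6.36%, 8.65%, 7.61% and 9.95% of Rps27 in C1 to C4 and at 7.29%, 5.65%, 5.92% and 6.25% in KD1 to KD4. The ketogenic values were mostly lower, but C1 and KD1 crossed, and the log2 ratio differed by -0.36 (exact two-sided permutation p = 0.057, adjusted over 5 pairs 0.21). Rps27 alone was higher by 0.39 (edgeR adjusted p = 0.016), and Rps27l differed by 0.00.

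Rpl22l1, which can replace Rpl22 in ribosomes, was at 10.6%, 15.0%, 13.0% and 12.2% of Rpl22 in the controls and at 14.8%, 17.9%, 13.6% and 16.04% in the ketogenic libraries. The groups overlapped through C2 (difference 0.30, exact two-sided permutation p = 0.086, adjusted over 5 pairs 0.21). Rpl36al was at 44.7% to 63.2% of Rpl36a in the controls and 55.3% to 61.2% in the ketogenic libraries (exact permutation p = 0.34, adjusted 0.43). Rpl7l1 was at 16.7% to 20.4% and 15.4% to 18.3% of Rpl7 (exact permutation p = 0.17, adjusted 0.29). Rpl3l, known from muscle, stayed between 0.06% and 0.14% of Rpl3 in all 8 libraries (exact permutation p = 0.71, adjusted 0.71). None of the 5 pairs passed, and the smallest p that 70 assignments of 4 against 4 allow is 0.029. At that floor, a single separated pair could not pass after adjustment over 5 or 8 pairs. The lack of a pass therefore does not show that the ratios were unchanged.

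The 3 pairs with near-identical copies were added after the symbols in the table were seen. Rps27rt was at 5.25%, 6.61%, 6.71% and 6.66% of Rps27 in the controls and 7.99%, 7.02%, 6.92% and 7.05% in the ketogenic libraries, with no overlap (difference 0.20, exact two-sided permutation p = 0.029, adjusted over 8 pairs 0.23). Without C1 the difference was 0.12 and without KD1 0.16. Rpl37rt to Rpl37 and Rpl6l to Rpl6 overlapped between groups (exact permutation p = 0.23 and 0.31, adjusted 0.37 and 0.39).

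**Figure D5:**
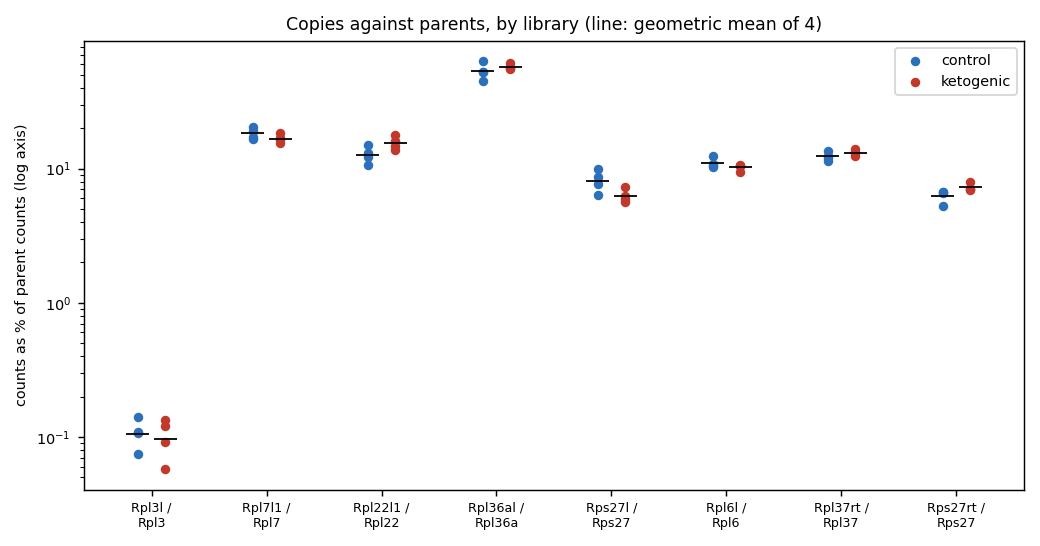
Counts of each copy as percent of its parent's counts in each library (log axis), controls in blue and ketogenic in red, with the geometric mean of 4. The groups overlap in every pair but Rps27rt to Rps27, and Rpl3l lies lowest, near 0.1% of Rpl3.

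Promoter windows from RefSeq (GRCm38.p6, 250 bases before to 50 after the start) were found for 67 of the 88 genes. A run of 8 or more C and T bases that begins with C, searched from 20 bases before to 50 after the start on the sense strand, was present in 51 of the 67 (76.1%) and in 23.1% of the 14040 other genes of the table with an entry. The sense-strand windows below run from 30 bases before to 30 after the start, with that run in capitals. The first 4 are the called members with the smallest p, and the last 4 those with the lowest log2 fold change, among genes whose run lies in the window, so all 8 hold a run by that choice. They are shown for where the run lies: it starts between 7 bases before and position 5 after the annotated start, and whether it is the first base of the mRNA was not tested. Members with a negative difference that the choice left out include Rpl24, whose longest run has 4 bases, and Rpl4 and Rps24, whose runs lie outside or at the edge of the window.
Rpl18: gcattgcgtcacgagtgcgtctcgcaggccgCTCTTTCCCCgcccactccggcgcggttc
Rps18: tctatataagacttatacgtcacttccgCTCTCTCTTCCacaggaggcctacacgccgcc
Rps9: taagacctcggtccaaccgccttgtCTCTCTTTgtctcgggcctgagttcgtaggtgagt
Rps27: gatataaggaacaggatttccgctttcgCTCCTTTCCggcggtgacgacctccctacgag
Rps26: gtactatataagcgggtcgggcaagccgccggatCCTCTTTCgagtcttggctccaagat
Rps6: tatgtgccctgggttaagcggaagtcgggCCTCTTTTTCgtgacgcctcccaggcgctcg
Rpl35: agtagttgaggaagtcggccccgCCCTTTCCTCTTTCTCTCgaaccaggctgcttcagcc
Rps10: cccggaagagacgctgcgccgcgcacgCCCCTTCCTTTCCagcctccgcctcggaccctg
The windows lie at chr7:45718041-45718100 for Rpl18 (+ strand), chr17:33955636-33955695 for Rps18 (- strand), chr7:3704011-3704070 for Rps9 (+ strand) and chr3:90213619-90213678 for Rps27 (- strand). The other 4 lie at chr10:128626477-128626536 for Rps26, chr4:86857338-86857397 for Rps6, chr2:39005102-39005161 for Rpl35 and chr17:27635215-27635274 for Rps10, all on the - strand.

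Of the 49 tested members with such a run, 21 were higher (median 0.21), and of the 15 without one, 7 were higher (median 0.19). CGGAAG on either strand, within the 300-base window, occurred in 64.2% of the members' windows and 27.9% of other genes. TCTCGCGA on either strand occurred in 16.4% and 1.83%, and TATAAA on either strand in 11.9% and 11.0%. A match describes letters only.

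Other gene lists of the translation machinery were read against the same background. Among 14 non-ribosomal genes with a known pyrimidine tract, 3 were higher: Eif3f and Eef1b2 by 0.26 each and Eef1a1, the main elongation factor, by 0.19. Of 43 ribosome biogenesis genes, 2 were higher (4.65%, beside 3.3% of all genes tested), Bop1 by 0.24 and Rrp9 by 0.39. As many, Sbds and Nmd3, were lower by 0.29 and 0.37 (edgeR adjusted p = 0.019 and 0.026), beside 3.22% of all genes tested. The median difference of this list was 0.06. None of 8 chaperones of ribosomal proteins and none of 5 regulators of pyrimidine-tract mRNAs passed (2 and 0 higher, 1 and 1 lower at an unadjusted p under 0.05). Of 10 kinase genes that share the Rps6k symbol stem, 1, Rps6ka2, was higher, by 0.29. Mitochondrial ribosomal protein genes had 1 higher and 1 lower of 78, with a median difference of 0.04.

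Among the listed markers of cell types, mainly erythroid and astrocyte genes differed between the groups. Of 5 erythroid genes 4 were higher, Hbb-bs by 1.41 and Hba-a1 by 1.57 (edgeR adjusted p = 0.0066 and 0.0073), and the summed CPM of the list was 40.1, 28.6, 15.3 and 52.4 in C1 to C4 and 69.4, 86.4, 102.5 and 114.1 in KD1 to KD4, with no overlap. The members' summed CPM in the same libraries was 12358, 12189, 13843 and 12263, then 13372, 15125, 15564 and 13715. Of 6 astrocyte genes 4 were lower, Aqp4 by 0.54 on the log2 scale and Gja1 by 0.34, with a summed CPM of 3718 to 4482 in the controls and 3522 to 4068 in the ketogenic libraries. None of the 8 neuronal, 6 oligodendrocyte, 5 endothelial or 5 choroid plexus genes passed (1, 0, 1 and 2 were higher and 1, 0, 0 and 0 lower at an unadjusted p under 0.05). Of 6 microglial genes only Tmem119 passed, and it was higher. At an unadjusted p under 0.05, 2 of the 6 were higher and 1 was lower, so the list was mixed. The part of these cells in the members' difference was not tested.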

How the data were processed

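The 8 whole-brain mRNA libraries, each made from 1.3 µg of total RNA with a SMARTer kit per the labels' protocols, are given as raw counts per gene symbol and as FPKM in the authors' deposited table. The submitters' processing notes name the builds GRCm38 and mm10. For the aligner, the counter, its annotation and its strand setting, the entry is "not given in the sources used here". Each deposited FPKM value is the count over 1 fixed length per gene and the library total.

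Members and gene lists were chosen with earlier results of these data known. Counts were filtered with filterByExpr, scaled by TMM and tested with edgeR 4.0.16 (quasi-likelihood, 2 groups, adjusted p under 0.05; R 4.3.3), checked on simulated data. DESeq2 1.42.0 and limma 3.58.1 were alternatives, with other scalings, filters and trends. Copy-to-parent log2 ratios used counts + 0.5 and an exact permutation test. Genes to name were drawn from the 8 smallest p-values past the threshold in each direction and the 5 highest and lowest FPKM. Copies and parents, the 4 nearest to 0, listed key genes and the 2 smallest p-values of each list were added. Not every gene so chosen is named in the text, Rpl36 and Rpl10a among those left out. Rps9, Rps18, Rps23, Rps24, Rpl24, Rpl29, Rpl37, Rpl37rt, Eef1a1, Bop1, Rrp9 and Slc5a5 were named after their values were seen. A few results are not reported here.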

Additional observations from a re-analysis of the deposited data

Results flagged for a closer look

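Among 104 groups of 4 libraries examined for the named genes, the ratios and the sums, 7 had 1 library far from the other 3 by Dixon's criterion, where chance gives about 1 in 20. Rpl21 was at 62.3 CPM in C4 and at 81.1 CPM in KD2, each far above the rest of its group. C3 was far above the other controls for Rpl11 (213.5 CPM), for Rps27 (101.9 CPM) and for the summed CPM of the members (13843). Rps27rt as a percent of Rps27 was low in C1 (5.25%) and high in KD1 (7.99%), a pair of genes whose transcripts share their sequence.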

How the results depend on the processing

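The median difference of the members stayed above 0 under every setting run. The members called higher numbered 40 and went to 3 and 6 with limma on log2(FPKM + 1) and log2(FPKM + 0.1), 17 with the length trend removed, 14 with GC and length removed and 8 without KD3 and KD4 together. With 1 library left out they ranged from 12 to 41. Members lower numbered 0, but 1 with the length trend or with GC and length removed, 0 to 1 with a library left out, and 2 (Rpl35 and Rps26) under the replicate block with GC and length removed. In the same order of settings, large subunit genes higher went from 21 to 2, 3, 8, 6 and 3, to 13 under the replicate block with GC and length removed, and to 5 to 22 with a library left out. Small subunit genes went from 19 to 1, 3, 9, 8 and 5, and to 7 to 19 with a library left out. All genes past the threshold went from 971 to 1748 with DESeq2, 64 and 88 with limma on FPKM, 1528 under the replicate block, 311 with GC and length removed, 90 without KD3 and KD4, and 146 to 1900 with a library left out. The replicate block gave 49 members higher. Same-numbered libraries deviated together with correlations of 0.02 to 0.08, and differently numbered ones with correlations of -0.09 to 0.09. The main fit did not take the numbers as pairs, and these values do not settle whether they are. Without C4, the ratio of Rpl36al to Rpl36a had an exact permutation p of 0.029, the smallest possible with 1 library left out. Paired differences of the ratios cannot go below an exact p of 0.125. The cause of these changes was not tested.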
